A study of Mus musculus with 2 samples.

Results

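Cell cycle genes were followed in CD45-sorted cells of mouse oral carcinomas: 17 genes of S phase, in which DNA is copied, and 23 genes of G2 and M phase, in which the copies are checked and pulled apart. These 40 genes, of 32285 in the count tables, were taken by symbol. They were read in every barcode with at least 200 genes and at most 10% mitochondrial counts, and described in each cell type and each library. Both libraries came from MOC2 tumours, grown from a mouse oral squamous carcinoma line injected subcutaneously with Matrigel into C57BL/6 female mice 6 to 7 weeks old. Once tumours reached 80 to 100 mm3, 10 mice received Momordicine-I, a triterpenoid of bitter melon, at 30 mg/kg intraperitoneally once a day, and 10 mice received its DMSO and Captisol vehicle. Tumours of 3 mice per arm were pooled into 1 library per arm, after a sort on CD45, the leukocyte surface marker, with propidium iodide. With 1 library a group there is no replicate check, the values compare these libraries, and a pair of values names the vehicle library first and the Momordicine-I library second. The intervals given cover counting error only.

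The vehicle library kept 3364 of 3642 barcodes and 33179710 unique molecular identifiers (UMIs, each 1 counted transcript), and the Momordicine-I library 4370 of 4693 and 40284090. The medians were 5760 and 5002 UMIs a cell. The libraries shared 10 barcodes, of which 7 were kept. Cells were put into classes by marker genes, and neutrophils were the most numerous, with 1842 and 2556 cells. The other classes held 401 and 379 T cells, 225 and 86 B cells, 45 and 66 NK cells, 65 and 118 dendritic cells (DC), and 81 and 181 phagocytes (monocytes and macrophages). A further 166 and 226 phagocytes also carried neutrophil RNA and were kept apart. Against the sort, 78 and 187 cells carried keratins and other markers of the carcinoma, called tumour-gated here. Their Ptprc (the CD45 gene) was 19.1 and 15.1 CPM (UMIs of the gene per 1000000 UMIs of the class), against 362 to 1742 CPM in the immune classes, so the label did not hold for them. Classes of 2 kinds stayed apart: 158 and 173 cells with mixed markers, and 218 and 315 with too few markers to assign, whose medians were 1146 and 1241 UMIs.

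A dividing cell first copies its genome and then, in mitosis, shares the copies between daughters. E2F transcription factors switch on the replication genes before S phase, and the MMB and FOXM1 complexes switch on the mitotic genes later, through CHR elements often found near CCAAT boxes that bind NF-Y. In tumours both the carcinoma cells and activated lymphocytes divide, whereas mature neutrophils have left the cycle.

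Promoter letters differed along this division of the list. Printed are 5 promoters that hold its motifs, together with that of Kif23, a G2/M gene set apart below by its level in neutrophils. In the RefSeq promoter table (build GRCm38.p6), 15 of the 17 S genes and 20 of the 23 G2/M genes had entries, with 18 and 20 windows reaching from 250 bases before to 50 after the start. The letters TTTCGCGC, TTTGGCGC or TTTCCCGC (E2F-like, either strand) stood in 7 S windows (38.9%), in 1 G2/M window (5%) and in 1.84% of all 32851 windows. TTTGAA or TTCGAA (CHR-like, either strand) stood in 4 S windows (22.2%), in 16 G2/M windows (80%) and in 19.2% of all. CCAAT, on either strand, stood in 72.2% of S windows, 90% of G2/M windows and 37.4% of all. CHR-like letters and CCAAT stood together in 16.7% of S windows, 80% of G2/M windows and 7.52% of all. A match of letters is a description and not a measured site, and matches of different motifs did not overlap in the printed bases. Shown are the 200 bases before the start, 5′ to 3′ on the gene's strand, with these motifs in capitals (the reverse complement where they lie on the other strand). Mcm5 and Mcm6, subunits of the replicative helicase, hold E2F-like letters, and Cdk1, the mitotic kinase, holds all 3 motifs. Mki67 and Top2a hold CHR-like letters beside CCAAT, and Kif23 holds only a CCAAT box in these bases. A lack of CHR-like letters in the 200 bases was not particular to Kif23. It was shared by Aurka, Birc5, Bub1, Ccnb1, Cenpa, Cenpe, Cenpf, Nusap1 and Plk1, whereas the 80% above refers to the longer windows. In the longer windows, CHR-like letters stood in 4 of 6 windows (66.7%) of the genes that neutrophils carry broadly (below).
Mcm5 (chr8:75109309-75109508, plus strand): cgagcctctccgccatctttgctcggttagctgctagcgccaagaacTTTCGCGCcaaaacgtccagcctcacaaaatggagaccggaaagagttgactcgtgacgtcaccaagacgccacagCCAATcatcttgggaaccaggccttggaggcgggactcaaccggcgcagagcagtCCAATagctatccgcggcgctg
Mcm6 (chr1:128359706-128359905, minus strand): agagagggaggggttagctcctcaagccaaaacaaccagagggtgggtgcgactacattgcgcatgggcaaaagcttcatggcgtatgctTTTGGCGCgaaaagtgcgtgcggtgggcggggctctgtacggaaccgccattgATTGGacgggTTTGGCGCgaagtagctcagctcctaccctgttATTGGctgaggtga
Cdk1 (chr10:69352913-69353112, minus strand): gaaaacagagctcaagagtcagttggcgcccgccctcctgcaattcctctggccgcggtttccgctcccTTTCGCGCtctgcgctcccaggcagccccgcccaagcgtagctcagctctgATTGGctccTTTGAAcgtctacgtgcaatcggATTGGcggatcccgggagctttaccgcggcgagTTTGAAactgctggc
Mki67 (chr7:135716380-135716579, minus strand): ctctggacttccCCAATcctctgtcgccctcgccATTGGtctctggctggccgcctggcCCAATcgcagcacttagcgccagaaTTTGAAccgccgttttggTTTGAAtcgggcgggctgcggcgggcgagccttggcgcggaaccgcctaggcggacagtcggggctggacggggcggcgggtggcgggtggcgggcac
Top2a (chr11:99024190-99024389, minus strand): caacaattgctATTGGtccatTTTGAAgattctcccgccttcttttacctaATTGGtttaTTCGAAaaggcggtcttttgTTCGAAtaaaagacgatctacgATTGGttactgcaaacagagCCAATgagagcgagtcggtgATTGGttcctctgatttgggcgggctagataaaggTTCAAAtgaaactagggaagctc
Kif23 (chr9:61946800-61946999, minus strand): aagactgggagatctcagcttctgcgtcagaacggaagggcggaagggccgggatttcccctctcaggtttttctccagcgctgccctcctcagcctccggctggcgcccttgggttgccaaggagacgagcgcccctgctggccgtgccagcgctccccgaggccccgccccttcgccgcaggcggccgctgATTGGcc

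The first question was which cell types carried these genes. Levels were summed per class and library, and for the class comparison 6 members were set aside because neutrophils carried them broadly (below), which left core lists of 15 S and 19 G2/M genes. This choice was made after their values were seen. Core G2/M genes were highest in tumour-gated cells in both libraries, at 895 and 1515 CPM. Regulatory T cells (Treg), the suppressive Foxp3-positive T cells, came next and were the highest immune class, at 721 CPM (95% exact Poisson interval 667 to 779) and 749.5 CPM (676 to 829). Among classes with at least 45 cells in each library neutrophils were lowest, at 24.5 and 32.3 CPM, a rank that follows in part from the genes set aside. On the full list of 23 G2/M genes neutrophils stood at 822 and 912 CPM, above phagocytes (489 and 517 CPM), DC (522 and 705 CPM), B cells (646 and 644 CPM) and phagocytes with neutrophil RNA (708 and 769 CPM).

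**Figure D1:**
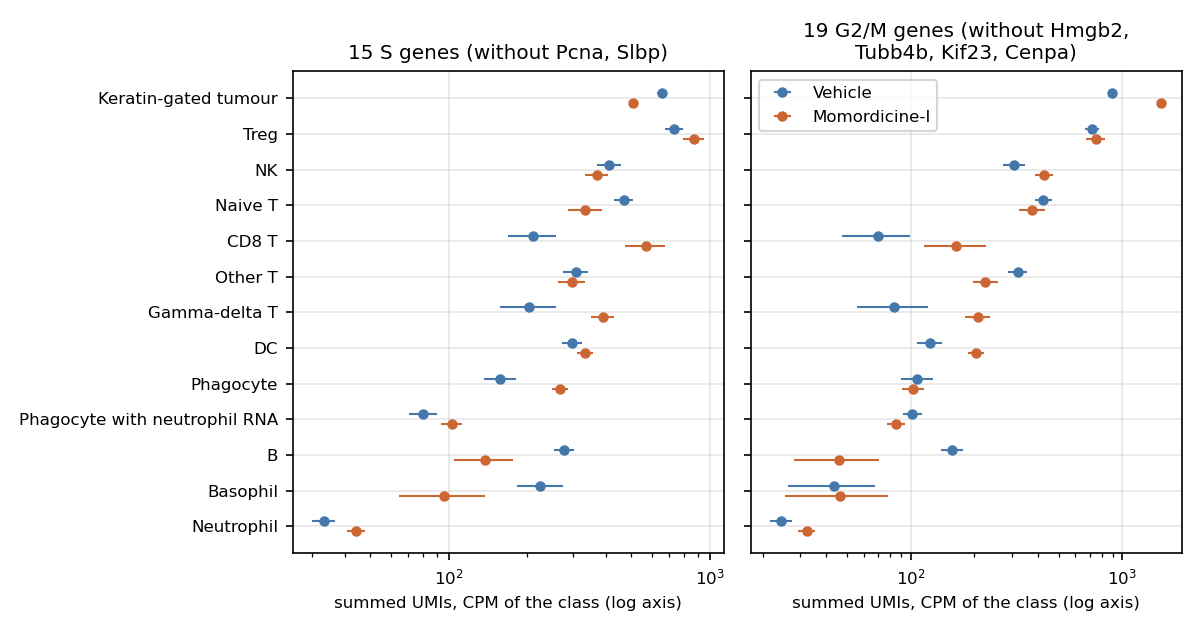
Summed UMIs of the 15 core S genes (left) and the 19 core G2/M genes (right) in each marker-gated class, in CPM on a log axis, for the vehicle (blue) and Momordicine-I (orange) libraries. Bars are 95% exact Poisson intervals and cover counting error only. Tumour-gated cells lead for G2/M genes at 895 and 1515 CPM, Treg lead for S genes at 730.0 and 867 CPM, and neutrophils are the lowest of the drawn classes on these lists, which leave out the 6 genes they carry.

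Between these ends the order of core G2/M levels differed between the libraries. In the vehicle library naive T cells (424 CPM) were followed by other T cells (320.4 CPM) and NK cells (309 CPM), and the latter 2 had overlapping intervals. B cells at 158 CPM (140 to 177), DC at 123 CPM (108 to 140.4), phagocytes at 108 CPM (90.2 to 127) and phagocytes with neutrophil RNA at 102 CPM (91.5 to 113) formed a chain of overlapping neighbours. In the Momordicine-I library NK cells stood at 428 CPM (388 to 470), with naive T cells at 375 CPM (324 to 430.4), and their intervals overlapped. Several of these levels rested on single cells: 1 Momordicine-I cell held 71.3% of the NK core G2/M UMIs, and 1 cell in each library 54.2% and 76.9% of those of naive T cells. In Treg the top cell held 28.5% and 35.9%. The levels of DC in both libraries and of vehicle phagocytes with neutrophil RNA also leaned on single cells (see the balance below).

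For the core S genes Treg were at 730.0 CPM (675 to 788) and 867 CPM (788 to 953), above tumour-gated cells at 656 (630 to 683) and 509 CPM (491 to 528). In the vehicle library these intervals overlapped. NK cells had 413 and 370 CPM and DC 297 and 333 CPM. Among classes with at least 45 cells in each library neutrophils were again lowest, at 33.3 and 44.2 CPM, and on the full S list they had 272 and 311 CPM. In CD8 T cells S genes were at 209.8 and 568 CPM, but 1 of the 20 Momordicine-I cells held 64.8% of the UMIs.

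Most core G2/M UMIs came from few cells. Tumour-gated cells were 2.32% of the vehicle cells and held 47.1% of these UMIs, and in the Momordicine-I library they were 4.28% of cells and held 69.3%. Their share of core S UMIs was 32.1% and 35.2%. T cells held 21.9% and 7.9% of core G2/M UMIs, and neutrophils, the most numerous class, held 4.24% and 3.57%. Core G2/M levels summed over all cells therefore lean on the tumour-gated cells, and S levels do so less. Of the UMIs of all 23 G2/M genes, tumour-gated cells held 6184 of 30452 and 16001 of 45518. Of those of all 17 S genes they held 3147 of 16292 and 4306 of 19162. Fewer cells and less RNA a cell cannot be told apart in such sums.

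Single cells were called cycling when they had UMIs of at least 3 different G2/M genes, Hmgb2 and Tubb4b not counted. By this rule 182 of 3364 vehicle cells (5.41%, exact binomial interval 4.67 to 6.23%) and 315 of 4370 Momordicine-I cells (7.21%, 6.46 to 8.01%) were cycling. The share was 33.3% and 45.5% in tumour-gated cells, 33.3% and 22.7% in NK cells, and 18.6% and 23.5% in Treg. All T cells together were at 9.73% (39 cells) and 9.76% (37 cells). Phagocytes were at 11.1% and 12.2%, and DC at 12.3% and 16.9%. Neutrophils, the class that should lack these genes, were at 0.651% and 1.33% with median depths of 5044 and 4472 UMIs. B cells, at 1.78% and 1.16% with 6110 and 4862 UMIs, were not above that background beyond their intervals. Gamma-delta T cells were at 4.35% (2 of 46 cells) and 3.97% (6 of 151 cells). Unassigned cells were at 5.05% and 7.94%.

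This call counts Kif23 and Cenpa, which neutrophils carry, and with the 19 core genes alone the shares were lower in most classes. Of all cells 2.88% and 4.32% were then called. Tumour-gated cells were at 29.5% and 43.9%. NK cells were at 13.3% and 10.6%, Treg at 8.14% and 13.7%, and all T cells at 4.49% and 4.75%. Phagocytes were at 7.41% and 6.08%, DC at 4.62% and 5.08%, and neutrophils at 0.163% and 0.274%.

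Depth moved with these calls. Cycling cells had medians of 27339.5 and 19741 UMIs, against 5579 and 4857 UMIs in the other cells, medians that also mix classes of unlike depth. Called cells were the deeper in most classes. The reverse held in vehicle phagocytes (10020 against 14058 UMIs) and Momordicine-I unassigned cells (1045 against 1245.5 UMIs). The gap was widest among tumour-gated cells of the vehicle library, where the 26 called cells had a median of 120202 UMIs and the rest 1032 UMIs, against 13021 and 1577 UMIs for those of the Momordicine-I arm. With every cell thinned to 2000 UMIs, leaving out 444 and 637 shallower cells, 1.06% and 1.66% of all cells were called. Tumour-gated cells still led, at 16.2% (6 of 37 cells, interval 6.19 to 32.0%) and 36.1% (39 of 108 cells, 27.1 to 45.9%), and the intervals of the libraries overlapped. Treg were next in the Momordicine-I library at 8.16% (4 of 49 cells), with 4.82% (4 of 83 cells) in the vehicle library, where phagocytes were at 5.56% (4 of 72 cells). NK cells, the deepest of the lymphoid classes at medians of 16776 and 13502 UMIs, fell to 4.44% (2 of 45 cells) and 1.54% (1 of 65 cells). DC, at medians of 28581 and 20680.5 UMIs, fell to 0% (0 of 65 cells, interval up to 5.52%) and 1.71% (2 of 117 cells). Phagocytes of the Momordicine-I library fell to 1.19% (2 of 168 cells). Neutrophils were at 0.0619% and 0.0447%, 1 cell in each library. By Mki67 alone (at least 1 UMI) the order differed. Thinned tumour-gated cells were then at 18.9% (7 of 37 cells) and 6.48% (7 of 108 cells), and Treg at 9.64% (8 of 83 cells) and 16.3% (8 of 49 cells).

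**Figure D2:**
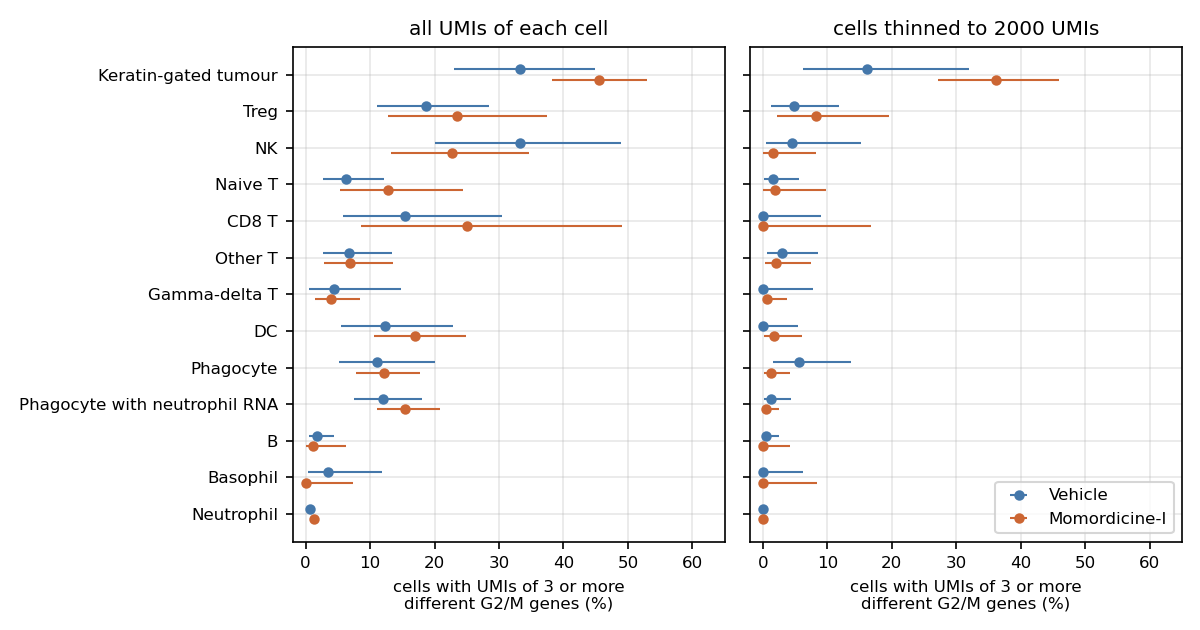
Percent of cells in each class with UMIs of at least 3 different G2/M genes, from all UMIs (left) and after thinning each cell to 2000 UMIs (right), for both libraries. Bars are 95% exact binomial intervals. Tumour-gated cells keep the highest share after thinning (16.2% and 36.1%), while the NK share falls from 33.3% and 22.7% to 4.44% and 1.54%.

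S and G2/M genes were then set against each other. A cell was called S-positive with UMIs of at least 3 of the 15 core S genes, and 106 vehicle cells and 162 Momordicine-I cells met both calls. In these libraries 161 and 199 cells were S-positive only, and 76 and 153 met the G2/M call only. This G2/M call counts Kif23 and Cenpa, which neutrophils carry, while the S call uses core genes alone. Of the cells with the G2/M call only, 11 and 32 were neutrophils, and 11 and 17 were phagocytes with neutrophil RNA. Among DC, 46.2% and 37.3% were S-positive, of which 23 of 30 and 30 of 44 did not meet the G2/M call. DC were also the deepest of the named classes (medians of 28581 and 20680.5 UMIs), and after thinning 3.08% and 3.42% of them were S-positive. Among B cells 21 of 225 were S-positive in the vehicle library (9.33%, 5.87 to 13.9%) and 1 of 86 in the Momordicine-I library (1.16%, 0.0294 to 6.31%), against 0.163% and 0.47% of neutrophils. After thinning the B cell shares were 0.901% and 0%, the latter of 85 cells, which allows a share of up to 3.53% by a floor of 3 counts and 4.25% by the exact interval.

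The ratio of core S to core G2/M UMIs gave each class a balance. It was lowest in tumour-gated cells, at 0.732 (0.694 to 0.772) and 0.336 (0.323 to 0.3504). In Treg it was 1.01 (0.907 to 1.13) and 1.16 (1.01 to 1.33), and in DC 2.41 (2.06 to 2.83) and 1.63 (1.46 to 1.82). The DC values rested in part on single cells. Without the cell with most UMIs of each list DC were at 3.68 (2.99 to 4.56) and 2.79 (2.41 to 3.21), with overlapping intervals. Phagocytes had 1.47 (1.17 to 1.84) and 2.61 (2.27 to 2.99). In the vehicle library phagocytes with neutrophil RNA, at 0.783 (0.665 to 0.9204), overlapped the tumour-gated cells, and without the cell with most UMIs of each list they were at 1.68. In the Momordicine-I library no other class with at least 50 cells had an interval reaching that of tumour-gated cells. The balance of T cells went from 1.10 (1.02 to 1.18) to 1.37 (1.26 to 1.48).

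Depth also moved with the balance. With cells thinned to 2000 UMIs it was 0.478 (0.324 to 0.694) and 0.3701 (0.296 to 0.4603) in tumour-gated cells, whose intervals then overlapped. Phagocytes were at 1.13 (0.679 to 1.87) and 1.29 (0.808 to 2.09), so their gap between the libraries was not detectable in thinned cells. With the gate minimums doubled they were at 0.772 and 2.35. DC were at 3.91 (1.98 to 8.41) and 1.94 (1.23 to 3.09) after thinning, and T cells at 1.37 (1.09 to 1.72) and 1.95 (1.57 to 2.44), with overlapping intervals in both classes.

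The genes were next taken by role, over all cells of each library. The 6 MCM genes encode the ring of the replicative helicase and moved little. Mcm2 had 14.0 and 13.2 CPM, and Mcm3 had 18.6 and 19.3 CPM. Mcm4 had 20.7 and 20.1 CPM, and Mcm5 had 16.8 and 17.1 CPM. Mcm6 had 24.7 and 21.8 CPM, and Mcm7 had 20.5 and 20.4 CPM. Of these 6 ratios that of Mcm6, 0.882 (exact conditional interval 0.801 to 0.971), was the only one whose interval left out 1. Cdc6, which loads the helicase at origins, had 129 and 96 UMIs, or 3.89 and 2.38 CPM. Cdc45 and Gins2, genes of origin firing, had 5.3 and 5.51 CPM, and 6.84 and 8.54 CPM.

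Genes of nucleotide supply split. Rrm2, the small subunit of ribonucleotide reductase, was at 17.3 and 10.6 CPM, and Rrm1, the large subunit, at 20.4 and 21.3 CPM. Tyms, thymidylate synthase, was at 11.2 and 15.7 CPM. Among genes acting at the fork, the clamp Pcna had 162 and 149.7 CPM and the flap nuclease Fen1 12.8 and 11.0 CPM. Of the genes that restore chromatin, the methylation reader Uhrf1 had 13.3 and 10.5 CPM, the remodeller Hells 16.4 and 18.3 CPM, and the histone mRNA binder Slbp 106 and 110.1 CPM.

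Most G2/M genes were higher in the Momordicine-I library over all cells. Ube2c, the E2 enzyme of the anaphase-promoting complex, had 698 and 2280 UMIs (21.04 and 56.6 CPM), a ratio of 2.69 (2.47 to 2.93). Cdc20, which activates that complex, had 5 and 10.1 CPM. The kinetochore genes Cenpe and Cenpf had 6.63 and 14.9 CPM, and 8.47 and 19.3 CPM, while Cenpa, the centromeric histone, had 48.1 and 59.7 CPM. The cyclins Ccna2, Ccnb1 and Ccnb2, which drive Cdk1, had ratios of 1.39, 1.88 and 1.70 from vehicle levels of 7.75, 4.82 and 8.05 CPM, and Cdk1 itself had 16.1 and 23.8 CPM. Among mitotic kinases, Aurka (2.95 and 6.21 CPM), Plk1 (3.1 and 6.08 CPM), Bub1 (3.19 and 6.65 CPM) and Bub1b (3.77 and 5.71 CPM) were higher, and Aurkb had 4.73 and 4.99 CPM.

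Spindle genes were less even. Tpx2, which nucleates spindle microtubules, had 7.87 and 12.1 CPM, and Birc5, of the chromosomal passenger complex, had 14.6 and 24.7 CPM. The microtubule binder Nusap1 had 7.69 and 11.2 CPM, and the kinesin Kif11 had 6.15 and 7.84 CPM. Kif23, a kinesin of the midzone, had 33.0 and 37.9 CPM, and the tubulin Tubb4b had 95.4 and 109 CPM. Of the chromosome proteins, Mki67, which coats mitotic chromosomes, had 28.5 and 29.1 CPM, Top2a, which untangles DNA, 46.7 and 53.3 CPM, and the DNA-bending protein Hmgb2 534 and 597 CPM. Mki67 was thus nearly level (ratio 1.02, 0.936 to 1.11) beside Ube2c.

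A gene with at least 20 UMIs in a class was counted as past the limit when its CPM ratio reached 1.5-fold. Over all cells 12 of 23 G2/M genes were higher by that fold and none lower, where 6.78% of all 14930 genes tested were higher. Of 17 S genes none were higher and 2, Rrm2 and Cdc6, were lower, where 6.9% of all genes were lower. The median log2 ratio was 0.60 for G2/M genes and -0.0028 for S genes, beside 0.03 for all genes. Of 65 other cell cycle genes taken from textbook lists, 11 were higher and 2 lower.

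Which genes report on cycling cells was read from the neutrophils. Of the 40 genes, 6 stood apart there. Hmgb2 had a UMI in 79.2% and 82.4% of them, Pcna in 41.4% and 38.2%, and Slbp in 36.4% and 40.0%. Tubb4b was in 28.1% and 25.4%, Kif23 in 18.9% and 20.3%, and Cenpa in 11.1% and 8.92%. Mcm4 followed at 4.40% and 4.81% and Fen1 at 3.04% and 3.13%, and no other gene exceeded these. In the same neutrophils 0.651% and 1.33% were called cycling, and 0.163% and 0.274% when Kif23 and Cenpa were not counted.

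Kif23 stood out among them. Its level in neutrophils was 43.8 and 57.9 CPM, and neutrophils held 47.6% and 55.0% of all its UMIs. In cells called cycling on the remaining core genes it was close to this, at 47.3 and 48.9 CPM. These cycling cells leave out neutrophils and tumour-gated cells but keep mixed cells, unassigned cells and phagocytes with neutrophil RNA. Mixed cells had a median of 2.54% and 3.13% of UMIs from neutrophil markers. The part of neutrophil RNA in the levels of these cycling cells was not tested. For comparison Kif11, the other mitotic kinesin of the list, was at 0.673 and 0.965 CPM in neutrophils and at 47.0 and 31.2 CPM in those cycling cells. Slbp was alike to Kif23, at 101 and 133 CPM in neutrophils and 130.2 and 126 CPM in those cycling cells. Hmgb2 was at 656 and 727 CPM in neutrophils, below the 1177 and 866 CPM of those cycling cells. Of the inhibitors of cyclin-dependent kinases in neutrophils, Cdkn1a was at 1957 and 2252 CPM and Cdkn1b at 239 and 268 CPM.

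**Figure D3:**
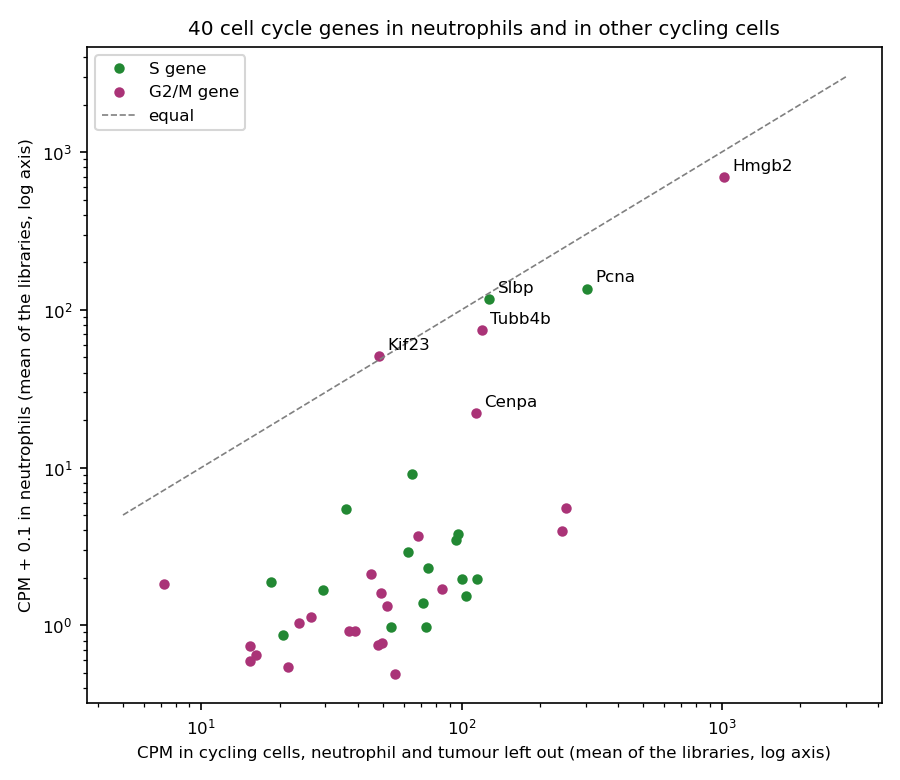
Level of each of the 40 genes in neutrophils (vertical, CPM + 0.1) against its level in non-neutrophil, non-tumour cells called cycling on the other core G2/M genes (horizontal, CPM), both on log axes and as the mean of the libraries. The dashed line marks equal levels. Kif23 and Slbp lie on it, Hmgb2, Tubb4b and Pcna lie somewhat below it, and most other genes lie far below.

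Within tumour-gated cells the G2/M genes were higher and the S genes lower in the Momordicine-I library, by summed UMIs. The 23 G2/M genes together had 1711 CPM (1668 to 1754) and 2661 CPM (2619.6 to 2702), a log2 ratio of 0.64, and the 17 S genes had 871 CPM (840.5 to 902) and 716 CPM (695 to 738), a log2 ratio of -0.28. Of the G2/M genes 13 of 23 were higher by 1.5-fold, where 7.4% of all genes tested were, and none were lower. Of the S genes 4 of 17 were lower, where 10.9% of all genes were, and none were higher. Median log2 ratios were 0.79 and -0.26, beside -0.08 for all genes. Of the 65 other cell cycle genes 18 were higher and 8 lower of 64 tested.

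Of the G2/M genes Nusap1 had the highest ratio in these cells. It was at 18.5 and 51.4 CPM, a ratio of 2.77 (2.12 to 3.67), Cenpf at 39.3 and 102 CPM, and Ube2c at 134 and 325 CPM, a ratio of 2.43 (2.2 to 2.69). By role, the anaphase-promoting complex genes (157 and 372 CPM) and the centromere and kinetochore genes (121 and 281 CPM) had log2 ratios of 1.24 and 1.21. Cyclins with Cdk1 had 219 and 294 CPM, a log2 ratio of 0.42. Mki67 at 72.5 and 76.7 CPM, Aurkb at 19.6 and 22.9 CPM and Kif23 at 42.9 and 35.7 CPM had intervals that held a ratio of 1. Of the S genes Cdc6 was at 13.6 and 4.16 CPM (ratio 0.307, 0.181 to 0.506), Rrm2 at 84.4 and 37.4 CPM, Mcm6 at 62.5 and 32.4 CPM, and Uhrf1 at 50.4 and 28.3 CPM. Tyms went the other way, at 45.4 and 61.7 CPM. Hells was at 77.5 and 63.5 CPM and Pcna at 152 and 137 CPM. Hmgb2 was at 502 and 725 CPM, Tubb4b at 219 and 279 CPM, and Slbp at 62.8 and 69.3 CPM.

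These sums rest on a few deep cells, since 1 cell held 27.1% of the vehicle's core G2/M UMIs and 26.9% of its core S UMIs, against 14.8% and 13.1% in the Momordicine-I library. Without that cell in each library the log2 ratio was 0.81 for G2/M genes, with 15 genes higher, and -0.08 for S genes, with 3 lower. Thinned to 2000 UMIs a cell (37 and 108 cells), the G2/M log2 ratio was 0.21 with an interval of -0.04 to 0.47, and of 8 genes with enough UMIs 3 were higher and 2 lower. The share of all genes past the fold was not counted under either setting, so these counts have no background beside them. With each cell weighted alike the S log2 ratio was 0.60, of opposite sign.

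In T cells, with all UMIs summed, the G2/M genes were below those of the vehicle library and the S genes level. Their S genes had 807 and 811 CPM (log2 ratio 0.01) and their G2/M genes 1261 and 1116 CPM (log2 ratio -0.18). Of 21 G2/M genes tested 8 were lower by 1.5-fold, where 8.31% of all genes were, and 1 was higher, Ccnb2 (5.75 and 8.67 CPM), where 7.7% of all genes were. Of 17 S genes 2 were lower, Cdc6 and Gins2, and none higher. Ccna2, which acts with Cdk2 and Cdk1, was at 11.2 and 5.58 CPM, and Kif23 at 32.9 and 18.6 CPM. Hmgb2 at 645 and 568 CPM, Tubb4b at 108 and 111 CPM and Top2a at 103 and 96.0 CPM were nearer to level, and so were Pcna at 227 and 216 CPM, Slbp at 149 and 156 CPM and Mcm6 at 61.6 and 70.3 CPM. After thinning the G2/M log2 ratio was 0.23, of opposite sign, and the S log2 ratio was 0.21 (0.03 to 0.39). Of 12 S genes tested in thinned cells 4 were higher by 1.5-fold and none lower, with no share of all genes counted there. No direction is therefore read for T cells. The T class also changed in makeup, from 86 to 51 Treg and from 46 to 151 gamma-delta T cells. Within Treg the S list had 1192 and 1292 CPM and the G2/M list 1958 and 1756 CPM, Mki67 179 and 225 CPM, and Top2a 189 and 225 CPM.

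**Figure D4:**
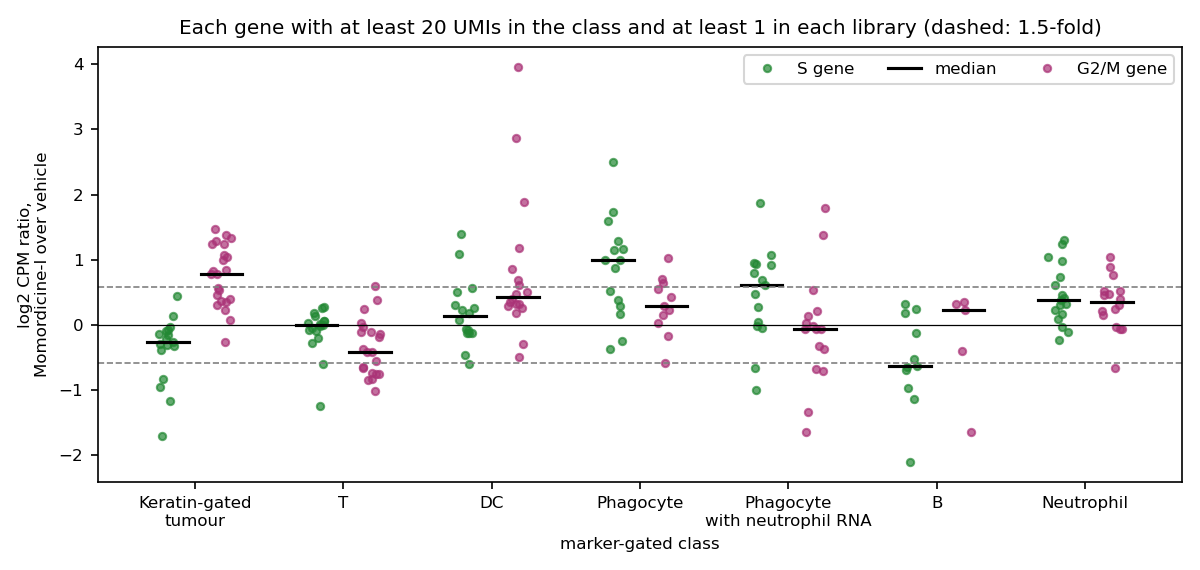
Log2 ratio of CPM, Momordicine-I over vehicle, for each S gene (green) and G2/M gene (purple) in 7 classes, for genes with at least 20 UMIs over both libraries and at least 1 in each. Black lines are medians of the drawn genes, dashed lines mark 1.5-fold, and a point has no replicate behind it. In tumour-gated cells 13 of 23 G2/M genes lie above the upper dashed line and 4 of 17 S genes below the lower one.

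In phagocytes the summed S genes were higher, with 367 CPM (334 to 402) and 517 CPM (491 to 544), a log2 ratio of 0.50. Of 15 S genes 9 were higher and none lower, beside 10.5% and 9.61% of all genes, and of 11 G2/M genes 3 were higher and 1, Kif23, lower. Hells was at 4.78 and 15.9 CPM and Mcm6, the helicase subunit, at 12.8 and 31.1 CPM, while Fen1 was at 15.1 and 11.7 CPM. Pcna was at 149 and 183 CPM, Slbp at 59.8 and 66.9 CPM and Mcm4 at 36.7 and 30.8 CPM. Hmgb2 was at 270.3 and 275 CPM, Cenpa at 55.8 and 65.1 CPM and Tubb4b at 46.2 and 68.0 CPM. After thinning (72 and 168 cells) the S log2 ratio was -0.32, so this direction did not hold with cells at equal depth. Their G2/M list had 489 and 517 CPM.

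In phagocytes with neutrophil RNA the S list had 314 and 332 CPM and the G2/M list 708 and 769 CPM. Of 15 S genes 8 were higher and 2 lower, beside 9.38% and 6.32% of all genes, and of 16 G2/M genes 2 were higher and 4 lower. The vehicle G2/M levels leaned on 1 cell, as the core balance went from 0.783 to 1.68 without the cell with most UMIs of each list. Mcm7, of the helicase, was at 5.91 and 11.4 CPM, Mcm4 at 19.8 and 12.5 CPM and Top2a at 27.2 and 17.0 CPM. Mcm4 and Top2a changed sign with the gate minimums doubled, and Top2a also when thinned (below). Pcna, Slbp, Tubb4b and Cenpa had log2 ratios between -0.06 and 0.02, and Hmgb2 was at 461 and 535 CPM. Neutrophil markers define this class, and the part of neutrophil RNA in its Hmgb2 was not tested.

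In DC the G2/M list had 522 and 705 CPM (log2 ratio 0.43; thinned 0.19, -0.24 to 0.64) and the S list 531 and 567 CPM. Of 18 G2/M genes 7 were higher and none lower, beside 9.32% and 7.89% of all genes, and of 16 S genes 2 were higher and 1, Rrm2, lower. In thinned cells 3 G2/M genes could be tested, of which none were higher and 1 was lower, with no share of all genes counted there. The core G2/M sums of both libraries leaned on single cells (see the balance above). Ube2c was at 3.28 and 24.0 CPM, but 1 cell held 87.1% of its 62 UMIs in the Momordicine-I library. Cenpa was at 56.9 and 92.2 CPM, Mcm3 at 34.5 and 51.1 CPM and Rrm2 at 17.0 and 11.2 CPM. Hmgb2 was at 275 and 312 CPM, Tubb4b at 56.4 and 80.2 CPM, Pcna at 161 and 148 CPM and Slbp at 73.3 and 85.6 CPM.

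In B cells the summed S genes were lower after Momordicine-I, and much of this was 1 vehicle cell. Their S list had 646 CPM (609.6 to 685) and 516 CPM (451 to 588), a log2 ratio of -0.33, and the core S list 276 and 138 CPM. Without the cell with most S UMIs in each library the log2 ratio was -0.15 (-0.37 to 0.06), and thinned it was -0.15 (-0.50 to 0.19). Of 13 S genes 8 were lower and none higher, beside 15.6% and 15.7% of all genes, and of 6 G2/M genes 2, Top2a and Mki67, were lower. A single vehicle cell held 30.1% of the core S UMIs and 39.3% of the core G2/M UMIs, and without the cell with most S UMIs in each library 3 S genes were lower. The share of all genes was not counted without that cell. Rrm2 had 51 UMIs in the vehicle library, 90.2% of them in 1 cell, and 0 in the Momordicine-I library. Top2a was at 57.4 and 18.3 CPM and Mcm6 at 33.2 and 20.6 CPM. Pcna (log2 ratio -0.13), Slbp (0.24), Tubb4b (0.23) and Cenpa (0.34), which neutrophils also carry, had intervals that held no change. Hmgb2 was at 318 and 397 CPM. The B class also differed in other markers between the libraries. Plasma cell markers were at 4773 and 232 CPM, though the median cell had 0.0180% and 0.0199% of its UMIs from them. Monocyte and macrophage markers were at 380 and 25.2 CPM. The part of this makeup in the S levels was not tested.

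In neutrophils the S list had 272 and 311 CPM and the G2/M list 822 and 912 CPM. Of 17 S genes 6 were higher and none lower, and of 16 G2/M genes 3 were higher and 1 lower. In this class 13.4% of all genes were higher and 4.32% lower, and the median log2 ratio of all genes was 0.16, beside 0.39 for S and 0.35 for G2/M genes. Slbp was at 101 and 133 CPM, Kif23 at 43.8 and 57.9 CPM, Hmgb2 at 656 and 727 CPM and Mcm4 at 7.99 and 9.92 CPM. Pcna at 137 and 134 CPM, Tubb4b at 75.6 and 72.6 CPM and Mki67 at 3.95 and 3.79 CPM were level, and Mcm5 had 15 and 36 UMIs.

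**Figure D5:**
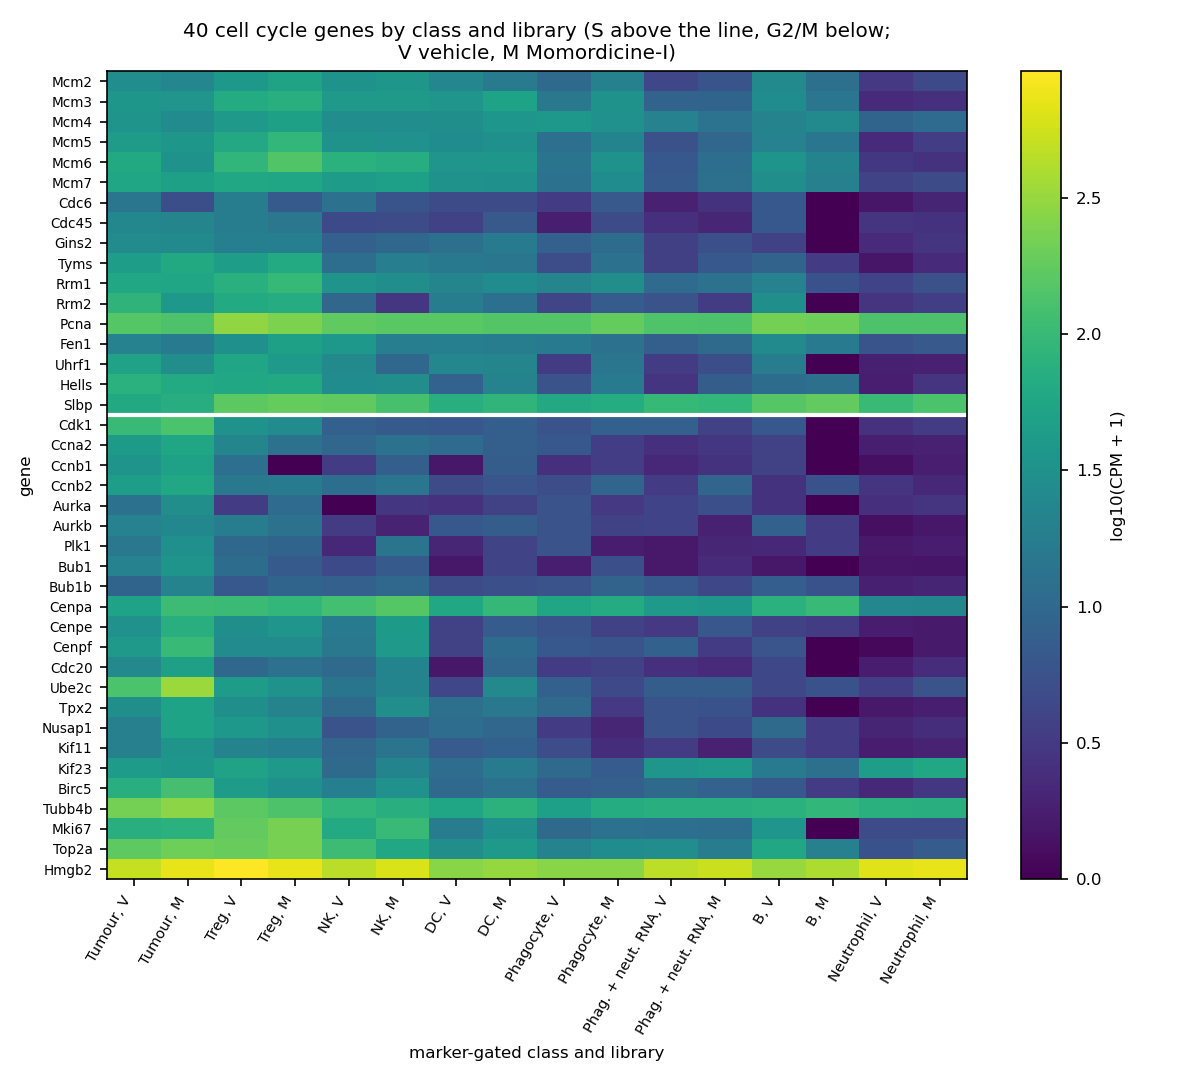
Level of each of the 40 genes, as log10(CPM + 1), in 8 classes and both libraries (V vehicle, M Momordicine-I), with S genes above the white line and G2/M genes below it. Columns hold different numbers of cells, from 45 NK cells to 2556 neutrophils. Hmgb2, Pcna, Slbp, Tubb4b, Kif23 and Cenpa stay bright in the neutrophil columns, where the other genes are dark.

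Among the other cell cycle genes with most UMIs in a class, those of the G1 phase and its brakes stood beside tubulins. In tumour-gated cells Ccnd1, the G1 cyclin D1, was at 695 and 497 CPM, and Cdkn2a, which encodes inhibitors of the cycle, at 378 and 375 CPM. In T cells Ccnd2, cyclin D2, was at 431 and 445 CPM and the condensin gene Smc4 at 244 and 185 CPM. In phagocytes Cdkn1a was at 766 and 564 CPM.

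Cells with markers of more than 1 class were also among those called. Of the called cells 35 and 39 had mixed markers, and of the 98 and 164 barcodes with the highest doublet scores 14 and 34 were called cycling. Carcinoma markers were at 9286 and 8332 CPM in tumour-gated cells and at 11.1 to 165 CPM in the other named classes. The part of doublets and free carcinoma RNA in the immune levels was not tested.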

How the data were processed

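The authors deposited UMI counts per gene and barcode from 10x Genomics 3′ libraries, made with Cell Ranger 6.0.2 on mm10 per the submitters' processing notes; no normalization had been applied. Barcodes with under 200 genes (25 and 26) or over 10% mitochondrial UMIs (274 and 322) were dropped. Cells were gated by at least 3 UMIs of at least 2 markers of a class (5 of 3 for phagocytes and carcinoma), with 3 times the UMIs of the next class; neutrophils had at least 1% of UMIs from their markers. Some markers left the gates after values were seen. Classes, T cell subsets and names therefore rest on rebuilt gates. Levels are summed UMIs per 1000000 UMIs (CPM) of a class; ratios needed 50 cells in each library and, for a gene, 20 UMIs over both, and a library at 0 entered at 3 counts. Intervals are 95% exact Poisson, Clopper-Pearson or conditional binomial. No test was run, since each arm is 1 library. Doublets stayed in; Scrublet's automatic limit marked 2 and 1 cells and so did not work, and an alternative removed the 98 and 164 highest scores, 0.8% of barcodes per 1000 barcodes. All 40 genes are given over all cells; per class, the 3 of each list with most UMIs and the highest and lowest ratio among those with 50 UMIs are named, and further genes were picked after their values were seen. The genes and lists were chosen with earlier results of these data known. Only the counting of genes past 1.5-fold was tested on simulated data, with Poisson counts and planted changes well beyond that fold. Changes near 1.5-fold and single cells that hold much of a sum were not simulated. The cycling call was not tested. Versions were Python 3.11.15, numpy 2.4.6, scipy 1.17.1, pandas 2.3.3 and scanpy 1.11.5.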

Additional observations from a re-analysis of the deposited data

Results flagged for a closer look

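List ratios pointed in opposite directions between classes, each with a 95% counting interval on one side of 0. With 1 library an arm the difference between classes was not tested. For the S genes the log2 ratio was 0.19 in neutrophils and 0.50 in phagocytes, against -0.33 in B cells and -0.28 in tumour-gated cells. Thinned to 2000 UMIs a cell, the S ratio was 0.11 (-0.01 to 0.23) in neutrophils, -0.32 in phagocytes, -0.15 in B cells and -0.21 (-0.63 to 0.22) in tumour-gated cells, each with an interval that held 0. With each cell weighted alike it was 0.60 in tumour-gated cells. For the G2/M genes it was 0.15 in neutrophils, 0.12 in phagocytes with neutrophil RNA, 0.43 in DC and 0.64 in tumour-gated cells, against -0.18 in T cells. The T cell value was 0.23 after thinning, of opposite sign, so no direction is read from it, and that of phagocytes with neutrophil RNA was -0.26 with the core lists. Thinned, the values in DC (0.19) and tumour-gated cells (0.21) had intervals that held 0.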

How the results depend on the processing

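No paired analysis was possible because each arm is 1 library. Values are log2 ratios, Momordicine-I over vehicle, that left the main value's 95% counting interval. A ratio is marked reversed where its sign changed and its main interval lay on one side of 0. The main interval held 0 for the S ratio in T cells, DC and phagocytes with neutrophil RNA and for the G2/M ratio in B cells and phagocytes, so changes of sign there carry no mark. The core lists, their use after thinning and their balance under other settings were chosen after seeing the data. In tumour-gated cells the G2/M ratio was above 0 under all 9 alternatives run, and removing the highest doublet scores moved no list ratio past its interval. With at most 5% mitochondrial UMIs, the S ratio was -0.13 in T cells and -0.46 in tumour-gated cells. The G2/M ratio there was -0.24 in T cells. With the gate minimums doubled, the G2/M ratio was -0.24 in phagocytes and 0.30 in phagocytes with neutrophil RNA. Without Hmgb2, Tubb4b and Slbp, the S ratio was 0.065 in neutrophils and -0.55 in B cells. The G2/M ratio there was 0.56 in all cells, 0.31 in neutrophils, -0.68 in B cells, -0.12 in phagocytes with neutrophil RNA (reversed), 0.71 in DC and 0.74 in tumour-gated cells. With the mean of single cells' CPM, the S ratio was 0.12 in all cells (reversed), 0.17 in T cells, -0.20 in phagocytes (reversed), -0.18 in DC and 0.60 in tumour-gated cells (reversed). The G2/M ratio there was 0.18 in T cells (reversed), 0.24 in B cells, -0.24 in phagocytes, 0.20 in phagocytes with neutrophil RNA, 0.24 in DC and 0.73 in tumour-gated cells. Thinned to 2000 UMIs, the S ratio was 0.11 in neutrophils, 0.21 in T cells, -0.32 in phagocytes (reversed), -0.047 in phagocytes with neutrophil RNA, -0.37 in DC and -0.21 in tumour-gated cells. For G2/M genes there it was 0.24 in all cells, 0.22 in neutrophils, 0.23 in T cells (reversed), -0.30 in phagocytes, 0.22 in phagocytes with neutrophil RNA, 0.19 in DC and 0.21 in tumour-gated cells. Without the cell with most list UMIs, the S ratio was -0.013 in all cells and -0.079 in tumour-gated cells. For G2/M genes there it was 0.20 in B cells, 0.22 in phagocytes with neutrophil RNA and 0.81 in tumour-gated cells. With the core lists, the S ratio was 0.41 in neutrophils, -1.01 in B cells, 0.76 in phagocytes, 0.37 in phagocytes with neutrophil RNA and -0.36 in tumour-gated cells. For G2/M genes there it was 0.66 in all cells, 0.40 in neutrophils, -0.29 in T cells, -1.78 in B cells, -0.068 in phagocytes, -0.26 in phagocytes with neutrophil RNA (reversed), 0.73 in DC and 0.76 in tumour-gated cells. With both the core lists and thinning, the S ratio was 0.13 in all cells (reversed), 0.55 in neutrophils, 0.53 in T cells, -0.036 in B cells, -0.93 in phagocytes (reversed), -0.37 in DC and -0.14 in tumour-gated cells. For G2/M genes there it was 0.41 in all cells, 0.45 in neutrophils, 0.019 in T cells (reversed), -0.55 in B cells, -1.13 in phagocytes, -0.38 in phagocytes with neutrophil RNA (reversed), 0.65 in DC and 0.23 in tumour-gated cells. Single genes that reversed were, in T cells, Hmgb2 (0.18 with the mean of cells and 0.27 thinned) and Ccna2 (0.11 thinned), in phagocytes Hells (-1.22 thinned), in phagocytes with neutrophil RNA Mcm4 (0.12 with doubled gates) and Top2a (1.33 with doubled gates and 0.24 thinned), in DC Tubb4b (-0.85 thinned), and in tumour-gated cells Hells (0.88 with the mean of cells, 0.45 thinned and 0.17 without the top cell) and Tubb4b (-0.18 thinned). Of 328 single-gene ratios under an alternative 267 stayed within the main interval and 49 left it without reversing. The cause of these shifts was not tested. Staying within the main interval, the S ratio in B cells had an interval reaching past 0 with at most 5% mitochondrial UMIs (-0.19, -0.53 to 0.13), thinned (-0.15) and without the top cell (-0.15), and that of all cells when thinned (-0.054). Thinning leaves fewer UMIs, so fewer genes reach the minimum. With at least 2 or at least 5 different genes required, the share of called cells was 44.9% and 24.4% in vehicle tumour-gated cells, 56.7% and 34.8% in those of the Momordicine-I library, and 7.17% and 0.109% in vehicle neutrophils.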
